A study of Caenorhabditis elegans with 12 samples.

Results

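The sites described here are ELT-2 binding peaks in L3 larvae of the nematode *Caenorhabditis elegans*. They lie at an intermediate distance from listed peaks of the promoter mark H3K4me3. They are the peaks of the deposited ELT-2 list whose summit, the base with the strongest signal, lay at least 1000 bp and under 50000 bp from the nearest H3K4me3 summit on the same chromosome. This rule took in 306 of 624 ELT-2 peaks (49.04%, 95% Wilson interval 45.1 to 53.0). The other ELT-2 peaks were 269 far peaks, at 50000 bp or more, and 49 near peaks, under 1000 bp. The sites were chosen by the measured summit positions of both antibodies, so their distances are given as a description only. Only listed H3K4me3 peaks were used, and an unlisted one may lie nearer.

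All libraries of the series came from wild-type worms of strain N2, with no mutation and no treatment, kept in liquid medium at 25 °C with HB101 *Escherichia coli* as food and taken at the L3 stage, 24 to 26 h post feeding. Chromatin immunoprecipitation sequencing (ChIP-seq) was done with a monoclonal antibody to ELT-2 (3 libraries), with an antibody to H3K4me3 (2 libraries) and with IgG alone as a mock control (2 libraries), and input DNA (3 libraries) and RNA (2 libraries) were sequenced beside them. The ELT-2 list and a list of 1562 H3K4me3 peaks were analysed, each made by the authors for the antibody as a whole, giving the position, the summit and a score of each peak. Neither list has a value per library, read depth is unknown, and the peaks of a list are not replicates. The groups of peaks are therefore set side by side without a test, and the intervals cover counting error only, as if peaks were independent. Whole larvae were used, so the cells that carry a mark at a site cannot be told apart.

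ELT-2 is a zinc finger transcription factor of the GATA family that is made in the worm intestine from the embryo to the adult. It binds GATA sequences near many genes of digestion, metabolism and defence and keeps them expressed in the differentiated gut. H3K4me3 is a histone mark laid down by methyltransferases of the SET1 family at the start of transcribed genes, whereas binding of a factor away from this mark can fall on enhancers, on promoters without a listed mark, or within genes. Which of these the sites are was not analysed here, because positions are in the ce10 build and no gene annotation or genome sequence of that build was used. Sites are therefore named by position, counted from 1.

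Distances ran on across both bounds of the rule, from 999 to 1007 bp and from 49766 to 50134 bp. Most near peaks, however, lay well below the lower bound, with a median distance of 29 bp (interquartile range 11 to 317). Just inside the lower bound were peaks at 1007, 1076 and 1186 bp, with scores of 282.56, 36.51 and 182.63. Just outside it were peaks at 999, 979 and 898 bp, with scores of 62.03, 74.00 and 152.51. At the upper bound, peaks at 49766, 49357 and 48857 bp with scores of 129.91, 35.14 and 47.78 were inside, and peaks at 50134, 50616 and 50906 bp with scores of 97.35, 35.66 and 57.23 were outside. The peaks given just outside the lower bound all scored above the median of the whole ELT-2 list, 43.755. On each of the other sides, scores above and below this median occurred. Within the bounds the median distance was 17455 bp (interquartile range 7766 to 30974.75). The 306 peaks comprised 54 at 1 to 5 kb, 117 at 5 to 20 kb and 135 at 20 to 50 kb.

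The peaks at 1 to 50 kb were sites of the autosomes, with 7 of 306 on chromosome X. Chromosome II held 76, V held 74, I held 59, IV held 56 and III held 34. On I they made up 59 of 68 ELT-2 peaks (86.8%, Wilson interval 76.7 to 92.9), and on III 34 of 44 (77.3%, 63.0 to 87.2). On II they were 60.8%, on IV 58.3% and on V 56.1% of the ELT-2 peaks. On X they were 4.403% (2.15 to 8.81), whereas 152 of the 269 far peaks lay there. The number of H3K4me3 peaks that could be met also differed, with 366 on I, 239 on II, 286 on III, 410 on IV, 247 on V and 14 on X. Among the autosomes the shares did not follow the order of these numbers. The distance rule depends on these numbers, so the counts by chromosome are a description of the sites and not an independent result.

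**Figure D1:**
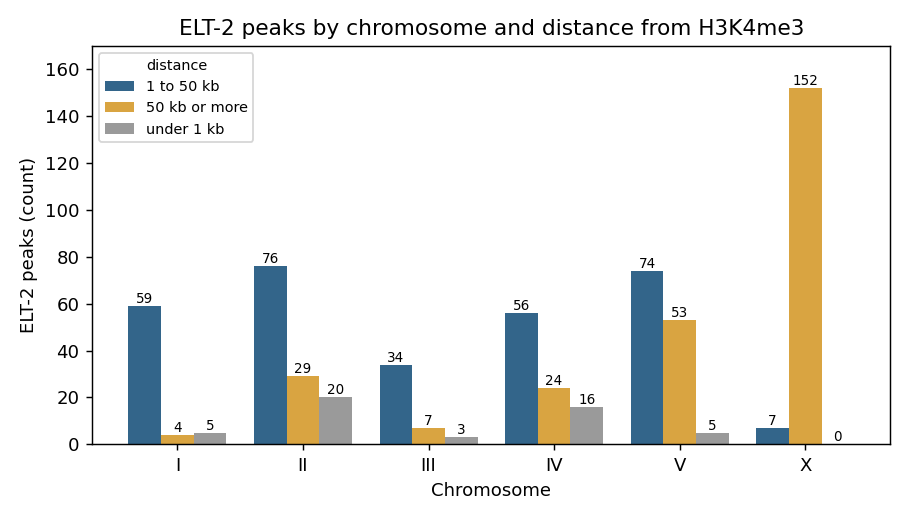
Number of ELT-2 peaks (vertical axis) on each chromosome (horizontal axis), in bars for summits 1 to 50 kb, 50 kb or more and under 1 kb from the nearest H3K4me3 summit. Peaks at 1 to 50 kb are the most numerous class on each autosome, from 34 on III to 76 on II, and number 7 on X beside 152 far peaks.

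The 7 peaks on X each had a different nearest H3K4me3 peak, at 21519 to 48379 bp. Their scores ran from 30.09 to 62.47, and the highest belonged to chrX:6819289-6819962. Each autosome was divided into 3 equal parts between the first and the last listed peak of either antibody. In the outer parts lay 204 of 299 peaks at 1 to 50 kb (68.2%, Wilson interval 62.7 to 73.2). An even spread would put 66.7% there, and the whole autosomal ELT-2 list had 70.8%. The share was 72.6% for the 117 autosomal far peaks (63.9 to 79.9) and 81.6% for the 49 near peaks (68.6 to 90.0). The interval of the peaks at 1 to 50 kb overlaps both of these. The peaks were spread over 86 windows of 1 Mb with a median of 3 each, and 21 windows held 1. The fullest windows, picked with their counts known, were 6 to 7 Mb on V with 12 peaks at 1 to 50 kb and a median score of 46.43, 2 to 3 Mb on II with 11 and a median of 36.35, and 3 to 4 Mb on II with 10 and a median of 37.7. The windows from 3 to 4 Mb on IV and from 10 to 11 Mb on V each held 9, with median scores of 64.06 and 42.44.

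Scores of the peaks at 1 to 50 kb covered the whole range of the list, from 30.04 to 462.26, with a median of 44.0 (95% interval of the median 42.57 to 46.66, n = 306). The far peaks had a median of 44.98 (42.05 to 47.45, n = 269) and the near peaks one of 39.07 (34.37 to 42.63, n = 49). The interval of the peaks at 1 to 50 kb thus overlapped that of the far peaks and narrowly that of the near peaks. Scores above the median of the whole list were found in 157 of the 306 peaks (51.3%, Wilson interval 45.7 to 56.9), in 138 of the 269 far peaks (51.3%, 45.4 to 57.2) and in 17 of the 49 near peaks (34.7%, 22.9 to 48.7). Near the lower limit of the list, 22.5% of the peaks at 1 to 50 kb, 21.9% of the far peaks and 36.7% of the near peaks scored under 35. The near peaks had a median distance of 29 bp, so their median score mainly describes peaks close to a H3K4me3 summit. The 3 near peaks with scores of 100 or more lay at 427, 677 and 898 bp, whereas others at 317 and 371 bp scored 31.85 and 33.67. Score by distance within the near peaks was not tested. Without chromosome X the medians were 44.0 at 1 to 50 kb and 47.05 in the far peaks, with intervals of 42.57 to 46.66 and 42.54 to 51.75.

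**Figure D2:**
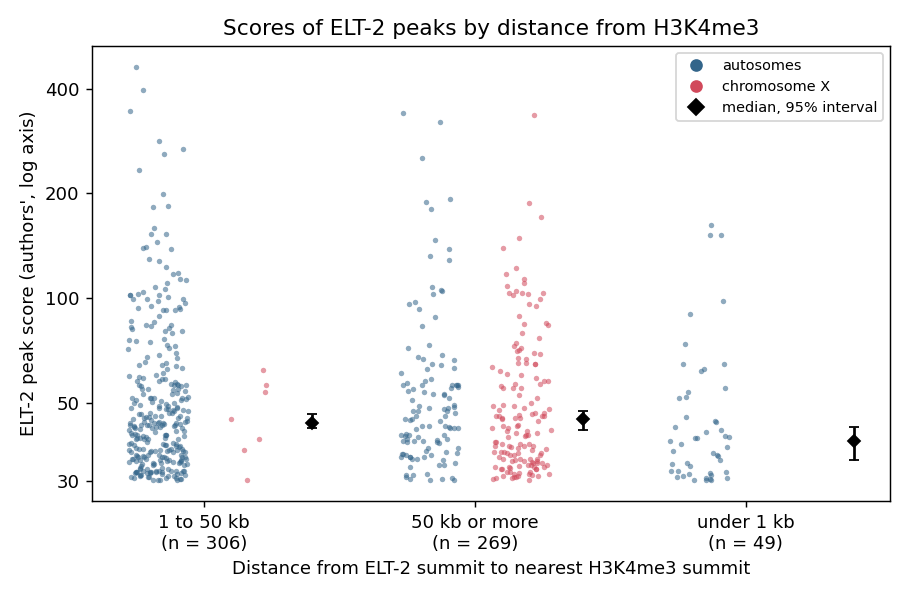
Authors' score of each ELT-2 peak (vertical axis, log scale) in the 3 distance classes (horizontal axis). Points are peaks, with those of chromosome X in red, and diamonds with bars are medians with 95% intervals, at 44.0 for 1 to 50 kb, 44.98 for 50 kb or more and 39.07 for under 1 kb.

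Of the 15 highest scores in the ELT-2 list, 8 belonged to peaks at 1 to 50 kb, 7 to far peaks and 0 to near peaks. Among the 63 highest, 31 were at 1 to 50 kb (49.2%, Wilson interval 37.3 to 61.2), beside 49.04% of the whole list. The share of strong sites at this distance was thus close to the share of all sites. The 12 highest peaks at 1 to 50 kb comprised 7 on IV, 3 on II and 2 on III, which held 56, 76 and 34 of all 306. The 12 were 322 to 717 bp wide. None had another ELT-2 summit within 5000 bp, which also held for 258 of all 306.

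The strongest site, chrIV:13919185-13919592, scored 462.26, and its nearest H3K4me3 summit was 31227 bp away on the side of lower coordinates. That H3K4me3 peak, chrIV:13887973-13888487, was 515 bp wide with a score of 124.37. The second site, chrIV:3988628-3989036, scored 397.39 and lay 14197 bp from a H3K4me3 peak that was 4501 bp wide, the widest of the H3K4me3 list, with a score of 49.12. Strong ELT-2 sites were thus found beside H3K4me3 peaks of very different widths. The third, chrIV:3899832-3900511, scored 344.76 at 34461 bp. It was followed by chrIV:3611595-3612311, with a score of 282.56 at 1007 bp. The site chrIV:3158192-3158571 scored 267.46 at 35793 bp. These 4 sites after the strongest all lay between 3 and 4 Mb of chromosome IV, a window that also held 51 H3K4me3 peaks.

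On chromosome II, chrII:1103700-1104075 scored 260.11 and had its nearest H3K4me3 summit 19203 bp away. The next sites there were chrII:3786538-3786924, with a score of 232.83 at 10656 bp, and chrII:2610224-2610653, with 183.70 at 45073 bp. On III, chrIII:2507962-2508301 scored 199.66 at 20386 bp and chrIII:6464031-6464352 scored 159.48 at 10565 bp. No order of score by distance is seen among these sites. The other 2 of the 12 were on IV. Of these, chrIV:1378953-1379380 scored 182.63 at 1186 bp and chrIV:17245198-17245588 scored 153.39 at 4533 bp. The H3K4me3 peaks beside them had scores of 30.17 and 30.90, at the lower limit of that list.

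On V the highest of these peaks was chrV:11235753-11236338, with a score of 153.31. Its nearest H3K4me3 summit was 7766 bp away, in a peak with a score of 314.69. On I the highest was chrI:10833388-10833730, with a score of 113.93 at 44378 bp. Median scores by chromosome were 49.87 on IV (interval 41.08 to 59.74), 45.92 on I (43.69 to 53.22), 45.0 on X (30.09 to 62.47), 44.8 on III (36.88 to 65.12), 42.75 on V (38.23 to 48.76) and 41.68 on II (36.35 to 45.66). All of these intervals overlap one another. Scores of 100 or more were found in 9 of 56 peaks on IV, 9 of 76 on II, 8 of 74 on V, 5 of 34 on III, 2 of 59 on I and 0 of 7 on X. The share was 10.8% over all these peaks and 10.6% over the whole ELT-2 list.

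Within the range of 1 to 50 kb the score showed no trend with distance. The median score was 46.96 at 1 to 5 kb (interval 37.61 to 53.58, n = 54), 43.21 at 5 to 20 kb (40.62 to 46.92, n = 117) and 45.0 at 20 to 50 kb (42.65 to 47.78, n = 135). Scores of 100 or more made up 13.0%, 10.3% and 10.4% of the peaks in these intervals, in the same order. Across the 306 peaks, Spearman's rho of distance and score was -0.0086 and Pearson's r on the log2 scale was -0.014. Without the 2 peaks farthest from the median distance, rho was -0.013 and r was -0.019. These peaks come from the same libraries and often share a nearest H3K4me3 peak, so the coefficients are descriptions. The 33 peaks with scores of 100 or more had a median distance of 19203 bp (10197 to 21891), beside 17429 bp for the other 273 (16055 to 20581).

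**Figure D3:**
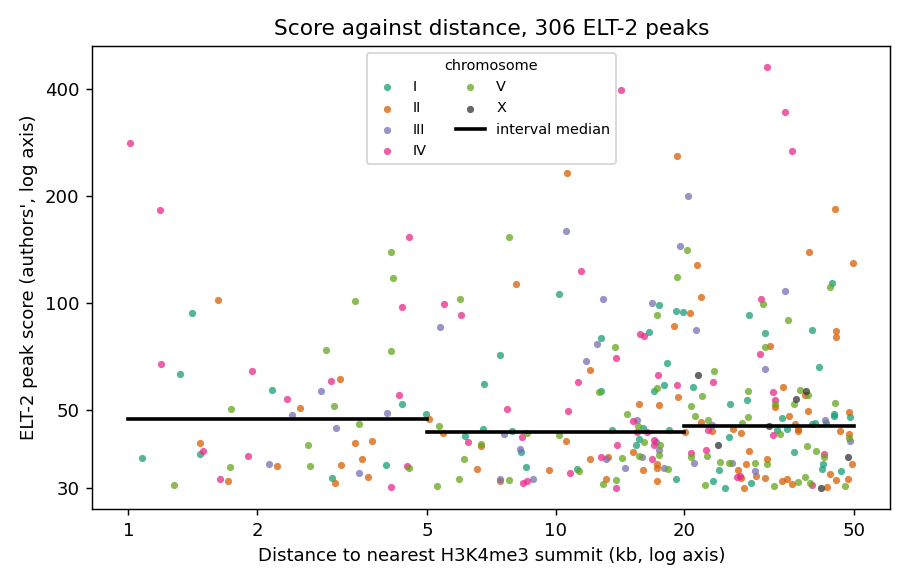
Authors' ELT-2 peak score (vertical axis, log scale) against the distance to the nearest H3K4me3 summit (horizontal axis, kb, log scale) for the 306 peaks, coloured by chromosome. Black lines are the medians of 46.96 at 1 to 5 kb, 43.21 at 5 to 20 kb and 45.0 at 20 to 50 kb, which lie at nearly the same height.

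Peaks at 1 to 50 kb were narrow. Their median width was 322.5 bp (interval 312 to 337, interquartile range 276.25 to 406.5), beside 370 bp in the far peaks (348 to 401) and 379 bp in the near peaks (345 to 495). Widths of 500 bp or more were found in 46 of the 306 peaks (15.03%), in 79 of 269 far peaks (29.4%) and in 17 of 49 near peaks (34.7%). The difference of medians from the far peaks was small without chromosome X. On the autosomes the median widths were 325 bp at 1 to 50 kb (313 to 338) and 332 bp in the far peaks (314 to 364), whereas the 152 far peaks on X had a median of 416 bp (378 to 464). Widths of 500 bp or more were still found on the autosomes in 15.05% of the peaks at 1 to 50 kb and in 20.5% of the far peaks. On X itself the 7 peaks at 1 to 50 kb had a median width of 299 bp (258 to 674). The difference from the near peaks remained on the autosomes, where all near peaks lie.

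**Figure D4:**
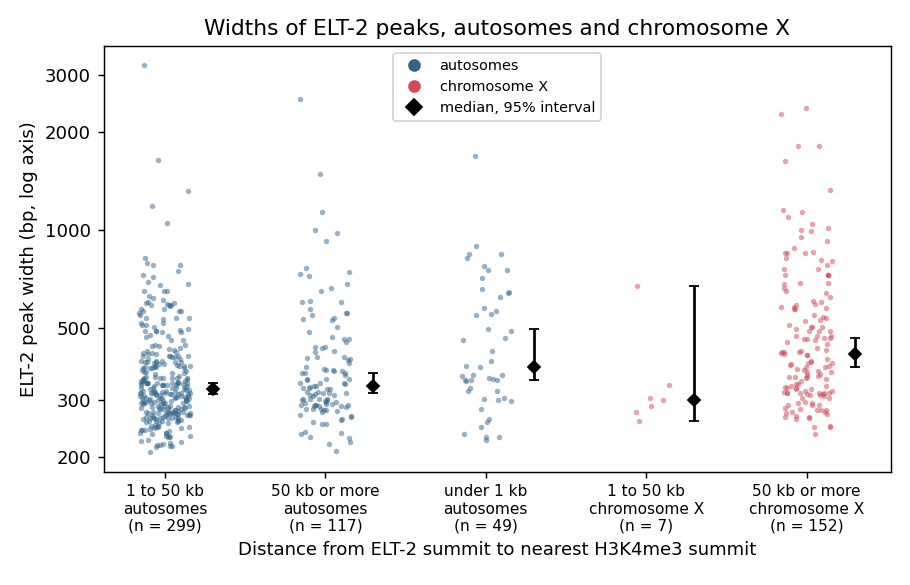
Width of each ELT-2 peak (vertical axis, bp, log scale) by distance class, on the autosomes and on chromosome X (horizontal axis). Points are peaks and diamonds with bars are medians with 95% intervals. On the autosomes the medians are 325 bp at 1 to 50 kb, 332 bp at 50 kb or more and 379 bp under 1 kb, and the far peaks on X have a median of 416 bp.

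Wider peaks at 1 to 50 kb tended to have higher scores. Spearman's rho of width and score was 0.32 over the 306 peaks and Pearson's r of the log2 values was 0.22, with 0.33 and 0.27 without the 2 peaks farthest from the median width. In the far peaks rho was 0.095 (n = 269), in the near peaks 0.013 (n = 49) and over the whole ELT-2 list 0.18 (n = 624). Of the far peaks, 152 lie on X, and rho was not computed for those on the autosomes alone. A longer region and a higher score can come from the same reads, and the difference between the classes was not tested. The 33 peaks with scores of 100 or more had a median width of 382 bp (343 to 409, range 270 to 726), beside 315 bp (304 to 330) for the other 273. For distance and width, rho was 0.00041 and Pearson's r of the log2 values was -0.079. Widths of 500 bp or more made up 22.2% of the peaks at 1 to 5 kb, 12.8% at 5 to 20 kb and 14.1% at 20 to 50 kb.

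The widest peaks were not the strongest. The 5 widest were the only ones of 1000 bp or more, and 4 of them scored between 31.95 and 41.82, below the list median. They were chrI:1735276-1738488 with 3213 bp, chrIV:3921596-3923233 with 1638 bp, chrV:11975304-11976618 with 1315 bp, chrV:16531566-16532746 with 1181 bp and chrI:1003941-1004991 with 1051 bp. The peak of 1315 bp had the highest score of the 5, at 73.16. The peak of 3213 bp is also the widest of the whole ELT-2 list.

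Although their summits were more than 1000 bp apart, 2 of the 306 peaks overlapped a H3K4me3 peak. The 3213 bp peak on I, with a score of 37.61, covered 99.4% of a H3K4me3 peak of 2796 bp with a score of 32.12, chrI:1735710-1738505. Both antibodies thus gave a low-scoring region of nearly the same extent, with summits 1473 bp apart. The other was chrIV:3611595-3612311, among the 5 strongest of the 306. It lay with 93.3% of its 717 bp inside a H3K4me3 peak of 3018 bp, at that peak's end. Its score was 282.56 and that of the H3K4me3 peak was 74.70.

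Most peaks at 1 to 50 kb stood alone. Another ELT-2 summit within 5000 bp was found for 48 of the 306 (15.7%, Wilson interval 12.04 to 20.2), beside 73 of 269 far peaks (27.1%, 22.2 to 32.7), 3 of 49 near peaks (6.12%, 2.10 to 16.5) and 19.9% of the whole list. On the autosomes the shares were 16.1% at 1 to 50 kb (12.3 to 20.6) and 27.4% in the far peaks (20.1 to 36.1), with intervals that overlap narrowly. Summits within 5000 bp of one another differ little in their distance to the mark, so the class of a partner is not independent. The 3 grouped near peaks each had their partner at 1 to 50 kb. The median distance to the next ELT-2 summit was 40650.5 bp (32813 to 60284) at 1 to 50 kb and 30626 bp (19995 to 43216) in the far peaks, and on the autosomes 39533 bp (32305 to 60284) and 44798 bp (21531 to 55129). The share with a close neighbour and the median spacing thus did not give the same order on the autosomes. By distance from the mark, 9.26% were grouped at 1 to 5 kb (4.02 to 19.9), 23.9% at 5 to 20 kb (17.1 to 32.4) and 11.1% at 20 to 50 kb (6.85 to 17.5).

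The grouped peaks formed 24 groups, 21 pairs and 3 groups of 3. Of the pairs, 18 consisted of 2 peaks at 1 to 50 kb and 3 joined one of them with a near peak. Each of the 24 groups lay between the same flanking H3K4me3 peaks. The group of 3 at chrII:5748437-5751697 had scores of 31.49, 47.92 and 43.43, with the H3K4me3 summit 33817 to 36834 bp away. That at chrIV:8527431-8531009 had scores of 80.65, 39.75 and 58.57 at 16070 to 19270 bp. That at chrV:6407571-6413486 had scores of 118.48, 44.84 and 74.96 at 13775 to 19277 bp. In each of the last 2, the peak in the middle was the lowest.

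In the pairs the summits lay 625 to 4627 bp apart, with a median of 2715 bp. Within the 18 pairs of peaks at 1 to 50 kb, the higher score was 1.01 to 2.85 times the lower one, with a median of 1.47. The higher-scoring partner was the one nearer to the H3K4me3 summit in 8 of 18 pairs, so the pairs showed no common side. The pair with the highest scores, chosen after its values were seen, was chrV:8648273-8651733 with 92.44 and 140.62. The closest pair, also chosen afterwards, was chrIV:1266208-1267144, with summits 625 bp apart and scores of 46.51 and 81.82. Grouped peaks had a median score of 46.6 (42.65 to 56.46, n = 48), beside 43.8 (41.32 to 46.1, n = 258) for those that stood alone, and median widths of 334 bp (313 to 378) and 321 bp (308 to 335). Both pairs of intervals overlap.

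The H3K4me3 peaks beside these sites had scores and widths like those of the rest of their list. The 306 ELT-2 peaks had 248 different nearest H3K4me3 peaks, of which 199 were nearest to 1, 40 to 2 and 9 to 3 of them. These 248 had a median score of 52.7 (48.53 to 60.69) and the other 1314 H3K4me3 peaks one of 57.55 (53.92 to 61.55). Their median width was 503 bp (458 to 575), beside 545 bp (519 to 566). Both pairs of intervals overlap. Widths of 1000 bp or more were found in 16.5% of the 248 (12.4 to 21.7) and in 17.5% of the other 1314 (15.5 to 19.7).

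The median score of the nearest H3K4me3 peak was lower at shorter distances, but the intervals of all distance ranges within 1 to 50 kb overlap. Its median was 47.1 for ELT-2 peaks at 1 to 5 kb (38.73 to 52.69), 52.1 at 5 to 20 kb (43.38 to 64.24) and 60.03 at 20 to 50 kb (48.53 to 76.3), with a rho of 0.14 over the 306. A H3K4me3 peak that is nearest to several ELT-2 peaks was counted for each. The median width ran the other way, with 609 bp (450 to 817), 550 bp (445 to 619) and 476 bp (436 to 559), and these intervals overlap too. For the near peaks the median score was 40.71 (36.75 to 46.3), in the same order. Their median width was 466 bp (408 to 637), outside the order of the widths. The scores of an ELT-2 peak and of its nearest H3K4me3 peak were nearly unrelated, with a rho of 0.041. The highest-scoring nearest H3K4me3 peak, chrIII:1418181-1419808 with 586.43, had 2 ELT-2 peaks of 33.59 and 35.45 at 29281 and 21069 bp. The next, chrIV:13239538-13240699 with 584.79, had an ELT-2 peak of 69.95 at 13818 bp, and chrIII:6374017-6375084 with 327.84 had one of 36.39 at 13122 bp. After it, chrV:11228129-11228905 with 314.69 had ELT-2 peaks of 153.31 and 56.93 at 7766 and 37323 bp.

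The 9 H3K4me3 peaks that were nearest to 3 ELT-2 peaks each had scores from 30.08 to 214.98. Of these, chrV:8630935-8631317, with a score of 35.63, had ELT-2 peaks of 92.44, 140.62 and 99.57 on the same side, at 17273 to 30591 bp. The peak chrII:5714410-5714990, with 214.98, had the group of 3 at chrII:5748437-5751697 described above. The peaks chrIV:8511386-8511830, with 32.02, and chrV:6426848-6428236, with 94.57, had the other 2 groups of 3. The remaining 5 were chrI:1029686-1029974, chrII:3279614-3280917, chrII:13872700-13873249, chrIII:12302015-12302273 and chrIV:17249773-17250337. In 6 of the 9 all ELT-2 peaks lay on 1 side, and chrII:3279614-3280917, chrII:13872700-13873249 and chrIV:17249773-17250337 had them on both sides. Over all 306 ELT-2 peaks, the nearest H3K4me3 summit had a higher coordinate in 141 (46.1%, Wilson interval 40.6 to 51.7) and a lower one in 165.

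The interval between listed H3K4me3 peaks in which an ELT-2 peak lies is tied to its distance class, so its length is given as a description. A listed H3K4me3 peak stood on both sides of 304 of the 306, and the median distance between these flanking summits was 89447.5 bp (interquartile range 49373 to 149615.75). It was 441851 bp for the far peaks and 27265 bp for the near peaks, and 27615.5 bp over all intervals of the H3K4me3 list. The 304 peaks fell into 230 different intervals, of which 58 held 2 or more and none held more than 4. Both flanking summits were under 50000 bp away for 117 of the 304 (38.5%, Wilson interval 33.2 to 44.1). The median number of listed H3K4me3 summits within 50000 bp was 2, and the highest was 12.

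Each peak name ends in a running number, and these numbers rise along each chromosome. The highest number was 16058 in the list of 1562 H3K4me3 peaks and 13804 in the list of 624 ELT-2 peaks. If the numbers count a longer list, as they read, an unlisted H3K4me3 peak may lie nearer than the listed one. In 297 of the 304 intervals counted per peak, at least 1 number was unlisted between the flanking H3K4me3 peaks, with a median of 16 (interquartile range 6.75 to 29) and a maximum of 227. At least 10 were unlisted for 203 of the 304 (66.8%, 61.3 to 71.8). Over all 1350 intervals of at least 2000 bp between listed H3K4me3 neighbours, which include those around the ELT-2 peaks, the median was 5. Per 10 kb of interval the medians were 1.93 unlisted numbers for the ELT-2 peaks and 1.79 for all these intervals. The first value of each pair counts an interval once for each ELT-2 peak in it and the second counts it once, so longer intervals weigh more in the first. Medians by chromosome were 23.5 on V, 17 on I, 13.5 on IV, 12 on X, 9.5 on III and 7 on II.

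**Figure D5:**
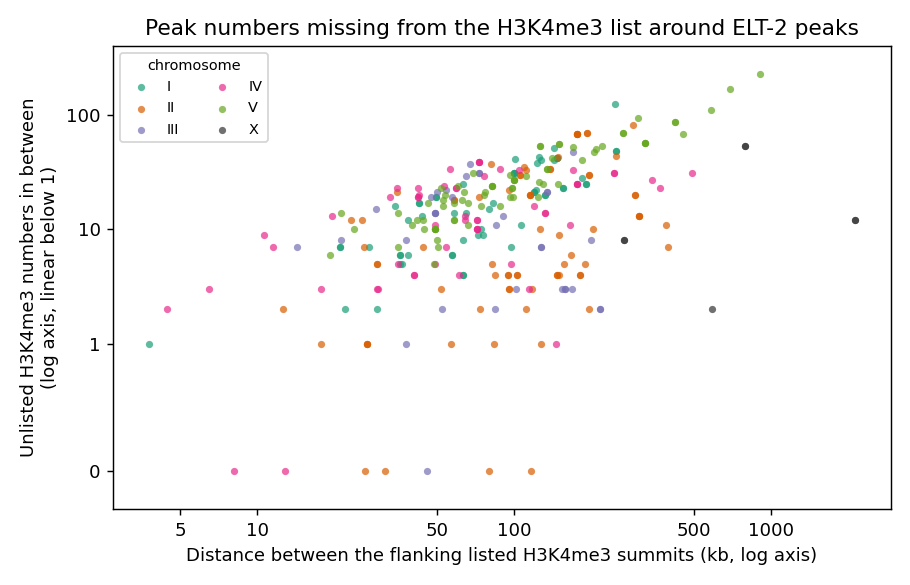
Unlisted H3K4me3 running numbers (vertical axis, log scale above 1) against the distance between the flanking listed H3K4me3 summits (horizontal axis, kb, log scale) for the 304 ELT-2 peaks with a listed H3K4me3 peak on both sides, coloured by chromosome. Longer intervals hold more unlisted numbers (Spearman's rho 0.48), and 7 peaks sit at 0.

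For 7 of the 304 peaks (2.30%, Wilson interval 1.12 to 4.68) no number was unlisted between the flanking peaks. Over all 1350 intervals of at least 2000 bp the share was 12.2% (165 intervals), counted per interval and not per peak. The 2 shares also differ in interval length. The median was 89447.5 bp around the ELT-2 peaks and 27615.5 bp over all intervals of the H3K4me3 list. Around the ELT-2 peaks, longer intervals held more unlisted numbers, so the lower share is not a trait shown for these sites. At the 7 peaks, on this reading, the listed neighbour is the nearest called one. These peaks were chosen after their values were seen. On II they were chrII:6026704-6026963 at 5065 bp, chrII:8625104-8625829 at 21427 bp, chrII:8922116-8922453 at 5439 bp and chrII:13341237-13341529 at 3051 bp. The others were chrIII:3253728-3254165 at 5354 bp, chrIV:6330848-6331106 at 1496 bp and chrIV:12399988-12400286 at 4288 bp. The strongest of the 7 was chrII:8625104-8625829, with a score of 127.85, followed by chrIII:3253728-3254165, with 85.65. The other 5 scored between 30.99 and 54.83. The strongest peak of all 306, chrIV:13919185-13919592, had 1 unlisted number in an interval of 145858 bp.

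In the ELT-2 list itself, 66 of the 306 peaks had a listed neighbour with the next running number (21.6%), beside 67 of the 269 far peaks (24.9%) and 4 of the 49 near peaks (8.16%). Of the 24 groups, 21 held consecutive numbers with none unlisted between the peaks. The median count of unlisted ELT-2 numbers on a side was 12 at 1 to 50 kb, 10 in the far peaks and 14 in the near peaks.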

How the data were processed

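Per the labels' protocols, chromatin of formaldehyde-fixed L3 larvae was sonicated, precipitated and sequenced on Illumina instruments. Bowtie 1.1.0, MACS2 2.0.9, bedtools and the build ce10 are named in the submitters' processing notes. Settings, the control and the merging of replicates are not stated in the sources used here. The deposited score is the peak caller's, on an unstated scale, and was compared within a list only. Tags in the list names read as removal of IgG, blacklisted and high-occupancy (HOT) regions and a score over 30, so a site without a listed peak is not shown to be unmarked. The lowest scores were 30.04 (ELT-2) and 30.01 (H3K4me3).

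Peaks and summits were joined by name, and groups are summits chained at 5000 bp or less. Medians have 95% intervals from binomial order statistics. No test was run, because the lists hold no value per library. Pearson's r used log2 of the value plus 1. Python 3.11.15, pandas 2.3.3, numpy 2.4.6, scipy 1.17.1 and matplotlib 3.10.9 were used, and the routines were tested on simulated data. The members and lists were chosen with earlier results of these data known. Named sites were the 12 highest scores, the highest of each chromosome, the 3 on each side of a bound, the 5 widest, groups of 3 or more, the 5 with the strongest nearest H3K4me3 peak and the H3K4me3 peaks nearest to the most members (5 planned, 9 tied). Gene annotation and sequence of ce10 were not used here.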

Additional observations from a re-analysis of the deposited data

How the results depend on the processing

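No paired analysis was possible because the peak lists hold no value per library and no test was run, and for the same reason no replicate could be left out. Of 72 values under 10 alternatives, 54 stayed within the interval of the reported value or within 1.5 times the reported count. For differences and ratios, this interval took in only the spread of the median at 1 to 50 kb. The far or near median was held fixed, so the interval is too narrow for the difference or ratio itself. The number of peaks was 171 with an upper bound of 20000 bp and 157 with ELT-2 scores above the list median. The difference of median scores between 1 to 50 kb and far peaks, -0.965 as reported, was 1.02 with H3K4me3 scores above the list median and -3.04 without chromosome X. That between 1 to 50 kb and near peaks, 4.94 as reported, was -2.68 with ELT-2 scores above the list median (17 near peaks) and -18.0 with H3K4me3 scores above the list median (7 near peaks). The ratio of median widths to the far peaks, 0.872 as reported, was 0.917 with ELT-2 scores above the list median, 0.921 with H3K4me3 scores above it and 0.979 without chromosome X. The ratio to the near peaks, 0.851 as reported, was 0.912 with a lower bound of 2000 bp, 0.894 with distances between peak edges, 0.952 with ELT-2 scores above the list median, 0.958 with H3K4me3 scores above it and 0.901 without chromosome IV. With H3K4me3 scores above the list median, by construction, the nearest H3K4me3 peaks had a median score of 97.1, and their median width was 647 bp. The share of grouped peaks was 7.84% at 2000 bp and 22.2% at 10000 bp, where the distance is the definition itself. The cause of the other changes was not tested. Depth limits which peaks were listed and is unknown here.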
